A study of Homo sapiens with 6 samples.

Results

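Integrin subunit genes and the cadherin gene CDH2 were followed in LP-1 cells, a human line established from multiple myeloma, after depletion of the ubiquitin ligase gene RNF5. The genes were chosen by name: ITGB7, ITGA8 and CDH2, and any other listed gene whose name starts with ITGA or ITGB followed by digits. The rule found 5 genes, ITGB7, ITGA8, CDH2, ITGA10 and ITGA9, of the 1877 in the authors' deposited table. Of the 6 libraries, 3 came from LP-1 cells carrying a short hairpin RNA against RNF5 (knockdown) and 3 from the same line carrying a non-target control. All 6 were grown in RPMI-1640 with 15% serum. No label states how many hairpins were used or when cells were harvested. Nor does any label say that the libraries of a group came from separate cultures, so p-values measure only the spread between these libraries, which may be technical. The authors listed only genes that differed at least 2-fold with an adjusted p under 0.05 in their own test. A gene outside the list has no value here, and tests on listed genes are not independent evidence of a change.

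Integrins are receptors made of an alpha and a beta subunit that bind matrix proteins or counter-receptors on other cells and couple them to actin. ITGB7 pairs with ITGA4, as a receptor for MADCAM1, VCAM1 and fibronectin, or with ITGAE, as a receptor for E-cadherin. In myeloma, high ITGB7 is known from tumours with high MAF, and the protein contributes to binding of tumour cells to bone marrow stroma. ITGA8, ITGA9 and ITGA10 each pair with ITGB1. Their known ligands are nephronectin for ITGA8, tenascin-C, osteopontin and VCAM1 for ITGA9, and collagens for ITGA10. CDH2 encodes N-cadherin, a calcium-dependent receptor that binds its like on a neighbouring cell and is held to actin through catenins. It is known to be high in myeloma with the translocation that activates NSD2, which LP-1 carries.

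The promoters of ITGB7, ITGA8 and CDH2, the genes whose signal was higher in the knockdown, are shown because they differ in base composition. Each line gives the 250 bases before the start of transcription, from RefSeq on GRCh38.p14, all on the minus strand. Capitals mark matches, on either strand, to TGCTGAC, the core of a MAF recognition site, or to GGGCGG, a GC box. The windows lie at chr12:53207252-53207501 for ITGB7, chr10:15719923-15720172 for ITGA8, and chr18:28177131-28177380 and chr18:28036642-28036891 for start sites 1 and 2 of CDH2.
ITGB7: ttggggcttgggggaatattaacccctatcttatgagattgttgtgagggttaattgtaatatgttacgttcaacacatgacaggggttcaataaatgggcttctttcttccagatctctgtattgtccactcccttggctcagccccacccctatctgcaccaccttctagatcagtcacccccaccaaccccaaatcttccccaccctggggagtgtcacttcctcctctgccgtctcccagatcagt
ITGA8: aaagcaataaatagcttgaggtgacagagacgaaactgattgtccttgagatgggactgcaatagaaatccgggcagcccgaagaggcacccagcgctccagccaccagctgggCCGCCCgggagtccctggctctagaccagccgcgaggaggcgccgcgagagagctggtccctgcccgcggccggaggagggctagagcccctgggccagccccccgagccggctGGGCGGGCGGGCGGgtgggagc
CDH2 start site 1: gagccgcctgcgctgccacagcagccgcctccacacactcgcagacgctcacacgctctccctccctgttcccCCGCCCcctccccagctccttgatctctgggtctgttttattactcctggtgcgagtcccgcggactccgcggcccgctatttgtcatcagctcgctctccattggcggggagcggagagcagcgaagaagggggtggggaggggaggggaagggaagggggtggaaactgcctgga
CDH2 start site 2: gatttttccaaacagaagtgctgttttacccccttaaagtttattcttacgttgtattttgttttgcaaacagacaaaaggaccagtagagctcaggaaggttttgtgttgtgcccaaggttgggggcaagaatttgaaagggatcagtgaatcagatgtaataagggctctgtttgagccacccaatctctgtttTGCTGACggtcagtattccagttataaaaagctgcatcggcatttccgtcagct

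The ITGB7 window held 49.6% G and C and no match to either motif. The ITGA8 window held 68.0% G and C and 4 matches to GGGCGG, 3 of which form a run where each overlaps the next. The 2 CDH2 windows held 66.0% and 42.0% G and C. The first had 1 match to GGGCGG, and the second had 1 match to TGCTGAC, which begins 54 bases upstream of the start. Over 35116 promoter windows of the same length, the median content of G and C was 58.0%, 3.43% held TGCTGAC and 42.6% held GGGCGG. Over the 1537 windows of listed genes, 4.23% held TGCTGAC and 53.5% held GGGCGG. The ITGA10 window, not printed, held 48.4% G and C and neither motif. A match describes these letters and is not a measured binding site.

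RNF5 itself checked the labels. Its normalized signal was 95.4, 81.35 and 88.44 in the knockdown libraries, against 1594.7, 1649.43 and 1248.3 in the control libraries, 16.9-fold lower on average (limma adjusted p = 1.34e-08). All values below are this normalized signal, whose scale no source used here names, so levels are not compared between genes. The signal of the listed genes summed to between 116843 and 122079 in the knockdown libraries and to between 90825 and 93975 in the control libraries. These sums cover selected genes only, and the depth of the libraries is unknown. Control library 3 held the lowest control value in 428 of the 598 listed genes with a mean of at least 5. Adjusted p-values come from limma on log2(value + 1) with Benjamini-Hochberg adjustment over the 1290 genes tested, and a fold change on that scale understates low genes.

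ITGB7 and ITGA8 rose to nearly the same degree, CDH2 rose less, and ITGA10 fell. ITGA9 was too low for the limma test and was lower in each knockdown library than in each control library. Of the 4 genes tested, 3 passed as higher and 1 as lower. Among all genes tested 97.7% passed, 55.7% as higher and 42% as lower, so the pass of these 4 genes is no result about integrins. The groups did not overlap in any of the 5 genes, against 93.2% of all listed genes and 95.7% of those tested. The plot of the listed integrins and CDH2 by library shows both directions.

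**Figure D1:**
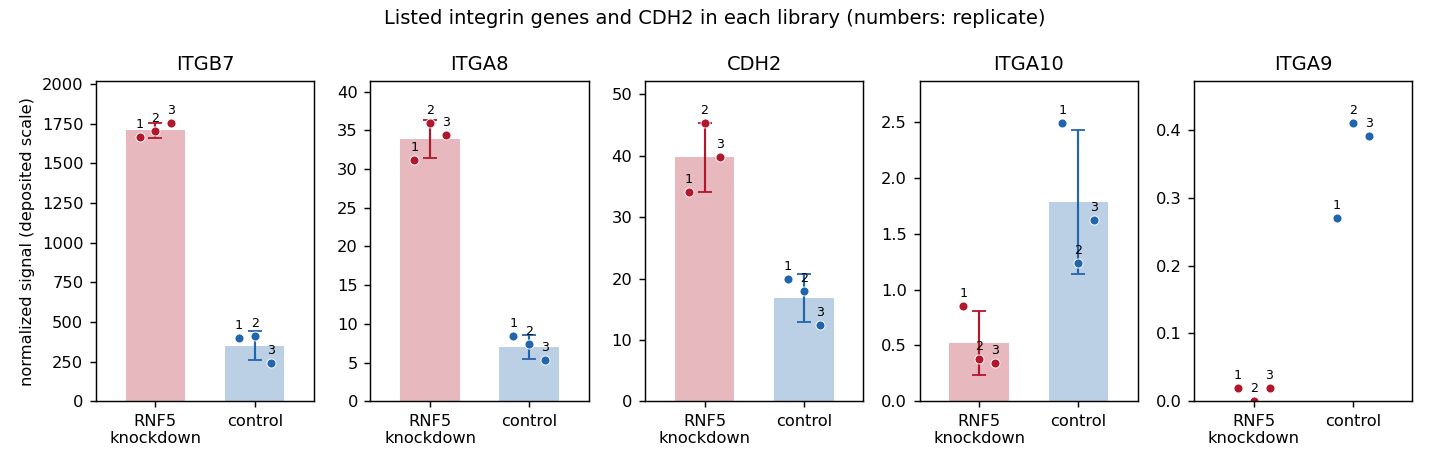
Normalized signal (deposited scale, each panel with its own linear axis from 0) of ITGB7, ITGA8, CDH2, ITGA10 and ITGA9 in the RNF5 knockdown and control libraries. Points are single libraries numbered by replicate, bars are means and error bars SD (n = 3 each), and ITGA9 has points alone because it is listed at 0 in knockdown library 2. In ITGB7 the knockdown libraries sit between 1665.1 and 1756.34 and the control libraries between 244.11 and 410.03.

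ITGB7 (ENSG00000139626) had a signal of 1665.1, 1702.86 and 1756.34 in knockdown libraries 1, 2 and 3, against 397.77, 410.03 and 244.11 in control libraries 1, 2 and 3. The lowest knockdown library was 4.06 times the highest control library. Its level averaged 1708 ± 45.8 in the knockdown and 351 ± 92.5 in the control (SD, n = 3 each), a 4.87-fold rise. The log2 fold change was 2.32 (SE 0.19, 95% interval 1.90 to 2.73, limma adjusted p = 2.5e-06), which ranked 8 from the top of the 1290 genes tested. The knockdown libraries lay closer together than the control libraries, with a coefficient of variation of 2.68% against 26.4%. In the GENCODE release 29 annotation, exons of ITGB7 and of ZNF740, a zinc finger gene on the opposite strand, overlap by 1886 of the 4481 exon bases of ITGB7. No source used here says whether the counting used strand, so reads of ITGB7 and ZNF740 cannot be told apart there, and ZNF740 is not among the listed genes. The pairing partners ITGA4 and ITGAE were also not among the listed genes.

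ITGA8 (ENSG00000077943) had a signal of 31.18, 35.96 and 34.42 in the knockdown libraries, against 8.42, 7.41 and 5.35 in the control libraries. Every knockdown library was at least 3.70 times the highest control library. The level averaged 33.9 ± 2.44 in the knockdown and 7.06 ± 1.56 in the control (SD, n = 3 each), 4.80-fold higher. The log2 fold change was 2.13 (SE 0.20, 95% interval 1.70 to 2.56, limma adjusted p = 4.86e-06), rank 20 of the genes tested. No other annotated gene overlapped ITGA8. Its partner ITGB1 was not among the listed genes.

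CDH2 (ENSG00000170558) had a signal of 34.09, 45.36 and 39.74 in the knockdown libraries, against 19.94, 18.03 and 12.41 in the control libraries. The groups were closer than for the integrins that rose, and the lowest knockdown library was 1.71 times the highest control library. The level averaged 39.7 ± 5.64 in the knockdown and 16.8 ± 3.91 in the control (SD, n = 3 each), a 2.37-fold rise. The log2 fold change was 1.21 (SE 0.21, 95% interval 0.75 to 1.67, limma adjusted p = 0.000241). It ranked 291 of the genes tested, whose median log2 fold change was 0.73, inside the upper part of the list rather than at its top. An antisense transcript, AC110015.1, overlaps 136 exon bases of CDH2.

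ITGA10 (ENSG00000143127) moved the other way and at a low level. Its signal was 0.85, 0.38 and 0.34 in the knockdown libraries, against 2.49, 1.24 and 1.62 in the control libraries. The highest knockdown and lowest control values lay close, at 0.85 and 1.24. The level averaged 0.523 ± 0.284 in the knockdown and 1.78 ± 0.641 in the control (SD, n = 3 each), and the log2 fold change was -0.86 (SE 0.19, limma adjusted p = 0.000972). ITGA10 entered the test only through its control values, so a gene like it had to differ to be tested at all. Without any 1 of the control libraries it no longer reached the minimum of 1 in 3 libraries and had no test. With other pseudocounts the log2 fold change ran from -1.63 at 0.1 to -0.29 at 5. The antisense gene AC243547.1 overlaps 122 of its exon bases.

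ITGA9 (ENSG00000144668) was near the floor of the table. It was listed at 0.02, 0 and 0.02 in the knockdown libraries and at 0.27, 0.41 and 0.39 in the control libraries. It did not reach the minimum for the limma test and no fold change is computed for it. The authors' deposited table gives it a log2 fold change of -4.95. The antisense gene ITGA9-AS1 overlaps 535 of its exon bases. In the same deposited table the authors' log2 fold changes were 2.11 for ITGB7, 2.12 for ITGA8, 1.04 for CDH2 and -1.84 for ITGA10. Those of ITGB7, ITGA8 and CDH2 are smaller than the ones computed here from the library values, and that of ITGA10 is larger in size. The fold changes computed here carry the added 1. The ratio of means does not, and for ITGA10 it was 0.293, against the authors' fold of 0.278. The log2 ratio of means exceeded the authors' log2 fold change by a median gap of 0.173. That median covers the 431 genes whose group means both reached 5.

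Control library 3 had the lowest signal of the controls in ITGB7, ITGA8 and CDH2, at 60.4%, 67.6% and 65.4% of the mean of control libraries 1 and 2. In ITGA10 the lowest control was library 2, and in ITGA9 it was library 1. Without control library 3 the knockdown over control ratio of means was 4.23 for ITGB7, 4.28 for ITGA8 and 2.09 for CDH2. With it left out, the 3 genes still passed limma, with log2 fold changes of 2.08, 1.97 and 1.02. The exact 2-sided permutation test over the 6 libraries gave p = 0.1 for each of the 5 genes, the smallest value that 3 against 3 libraries allow.

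Ratios between genes within a library do not depend on how libraries were scaled against each other, and were compared for the 3 pairs among the genes that rose, a comparison chosen after the values were seen. The log2 ratio of ITGB7 to ITGA8 was 5.66 ± 0.09 in the knockdown and 5.62 ± 0.15 in the control (SD, n = 3 each). The 2 groups overlapped, and the difference between a knockdown and a control library ran from -0.22 to 0.23 (exact 2-sided permutation p = 0.7). The log2 ratio of ITGB7 to CDH2 was 5.44 ± 0.19 in the knockdown and 4.37 ± 0.12 in the control. That of ITGA8 to CDH2 was -0.22 ± 0.10 in the knockdown and -1.25 ± 0.03 in the control. In both pairs with CDH2 the groups did not overlap, with mean differences of 1.06 and 1.02 on the log2 scale. Each had an exact permutation p of 0.1, the smallest possible, and 0.15 after Benjamini-Hochberg adjustment over the 3 pairs, so neither passed. The p of 0.7 does not show that ITGB7 and ITGA8 changed alike.

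**Figure D2:**
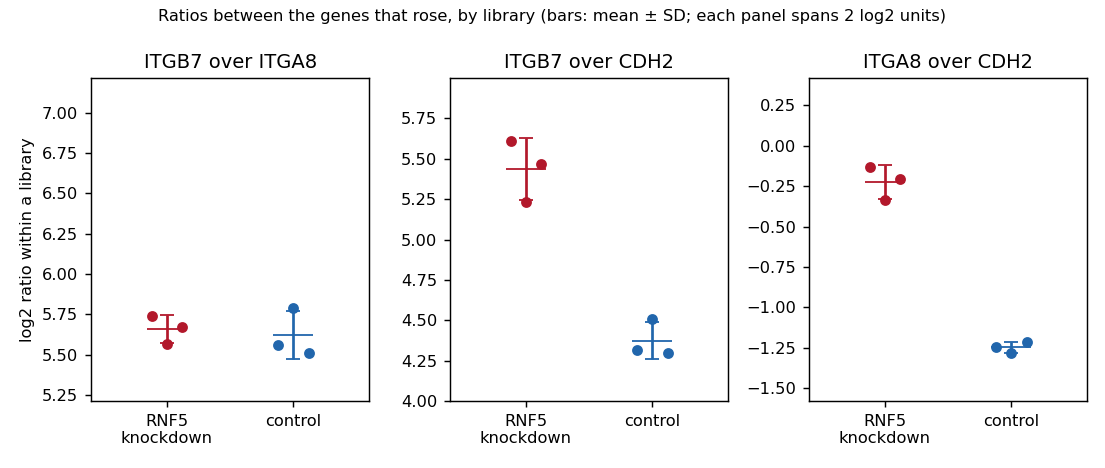
Log2 ratio of the normalized signal of 1 gene to another within each library (vertical axis, log2 units), in the RNF5 knockdown and the control, for the pairs of ITGB7, ITGA8 and CDH2. Points are libraries, and bars give the mean ± SD (n = 3 each). The groups overlap for ITGB7 over ITGA8 (means 5.66 and 5.62) and are apart by 1.06 and 1.02 in the pairs with CDH2.

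Other genes of cell adhesion were taken from 7 lists with 183 distinct symbols. NSD2 and SELENOP are also there under an older symbol. Of the 183 symbols, 29 were among the listed genes and 23 could be tested. Of these, 19 passed as higher and 4 as lower (2 as lower without control library 1), against 55.7% as higher and 42% as lower over all genes tested. Their median log2 fold change was 1.26, against 0.73 over all genes tested. The 6 others were too low to test and each had a lower mean in the knockdown, so the filter itself shifts these counts. With no filter, 19 passed as higher and 10 as lower, against 905 higher and 882 lower of all 1877 genes. The median log2 fold change of all genes was then -0.1, so the 0.73 set beside the adhesion lists depends on the filter. The lists hold ITGB7, ITGA8, CDH2, ITGA10 and ITGA9 themselves. They were also chosen with earlier results of these data known, so no excess of adhesion genes can be read from these counts. In bulk RNA, fewer cells with a transcript and less of it per cell cannot be told apart.

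Of 23 cadherins, 3 were listed, and CDH24 rose along with CDH2. CDH24 had a signal of 4.84, 4.37 and 4.73 in the knockdown libraries, against 2.71, 2.34 and 1.15 in the controls (log2 fold change 0.92, limma adjusted p = 0.00206). CDH3, which encodes P-cadherin, was too low to test, at 0.11 to 0.20 in the knockdown and 0.30 to 0.47 in the control. Catenins, which bind the cadherin tail, went both ways. JUP, which encodes plakoglobin, rose to 105 ± 5.96 in the knockdown, against 45.7 ± 16.7 in the control (SD, n = 3 each, log2 fold change 1.26, limma adjusted p = 0.000599). CTNND1, which encodes the catenin that steadies cadherins at the membrane, fell to 1.12 ± 0.140 in the knockdown, against 4.67 ± 1.39 in the control (log2 fold change -1.39, limma adjusted p = 0.0001). CTNNAL1, a relative of alpha catenin, fell as well (-1.22), and NECTIN1, an adhesion receptor of cell junctions, rose (0.91). The list of 14 catenins and partners thus held 2 rises and 2 falls, near the 55.7% higher and 42% lower of all genes tested. CTNNB1 and CTNNA1 were not among the listed genes.

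Of 36 integrin ligands, 7 were listed, 5 could be tested, and these passed as higher, a call that 55.7% of all genes tested received. MFGE8, a secreted protein with the RGD motif that integrins bind, rose to 17.2 ± 2.49 in the knockdown, against 7.10 ± 1.38 in the control (SD, n = 3 each, log2 fold change 1.17, limma adjusted p = 0.000233). The laminin chain LAMA5 rose to 12.8 ± 1.03 in the knockdown, against 6.11 ± 2.11 in the control (limma adjusted p = 0.00154). The laminin chain LAMA2 rose too (log2 fold change 0.57). The matricellular gene CCN2 had a signal of 1.28, 1.13 and 1.04 in the knockdown libraries, against 0.38, 0.21 and 0.22 in the controls (log2 fold change 0.76, limma adjusted p = 0.000113). CCN2 entered the test only through its knockdown values, so it had to differ to be tested, and its log2 fold change ran from 0.22 to 1.78 with the pseudocount. TGFB3, a growth factor gene, had a signal of 12.34, 1.68 and 1.72 in the knockdown libraries, against 1, 0.77 and 0.53 in the control libraries. Its log2 fold change of 1.39 rested on knockdown library 1: without it the value was 0.62, which still passed. Without control library 3 TGFB3 did not pass (limma adjusted p = 0.0894). LAMB2 and COL1A1, both lower in mean in the knockdown, were too low to test, at 0 to 0.44 in the knockdown and 0.47 to 1.10 in the control.

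Genes that activate integrins or tie them to actin were listed in 5 of 39 cases. The 3 that could be tested rose, as did 55.7% of all genes tested, and the other 2 had a lower mean in the knockdown. PTK2B, which encodes the adhesion kinase PYK2, had a signal of 362, 381.6 and 367.29 in the knockdown libraries, against 139.03, 132.55 and 83.98 in the controls (log2 fold change 1.67, limma adjusted p = 2.1e-05). FLNA, an actin crosslinker that binds integrin beta tails, rose to 1325 ± 78.2 in the knockdown, against 489 ± 182 in the control (SD, n = 3 each, log2 fold change 1.52, limma adjusted p = 0.000172). TLN2, a talin, which switches integrins to their binding state, rose to 10.7 ± 0.864 in the knockdown, against 3.66 ± 1.83 in the control (log2 fold change 1.42). Control library 3 was again the lowest control in all 3, at 83.98, 279.03 and 1.55. The kinase gene SRC and LIMS2 were too low to test, at 0 to 0.18 in the knockdown and 0.23 to 1.33 in the control.

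Of 26 other adhesion receptors known from myeloma, 3 were listed and all 3 rose, against 55.7% of all genes tested. They were SDC1, which encodes the plasma cell proteoglycan CD138 (log2 fold change 1.50), the co-stimulatory receptor gene CD28 (1.54) and PECAM1 (1.42). PECAM1 had a signal of 4.29, 5.05 and 5.90 in the knockdown libraries, against 1.60, 1.84 and 0.55 in the control libraries. In the list of 21 symbols of MAF and of the NSD2 translocation, 3 were listed. The chemokine receptor CCR1, known with ITGB7 as a MAF target, rose by a log2 fold change of 2.61 and the phosphatase PTP4A3 by 1.27. SELENOP fell (-0.51, limma adjusted p = 0.0188), with overlapping groups, and did not pass without knockdown library 1, knockdown library 3 or control library 1, where adjusted p was 0.0567, 0.096 and 0.0707. MAF, NSD2 and FGFR3 were not among the listed genes.

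**Figure D3:**
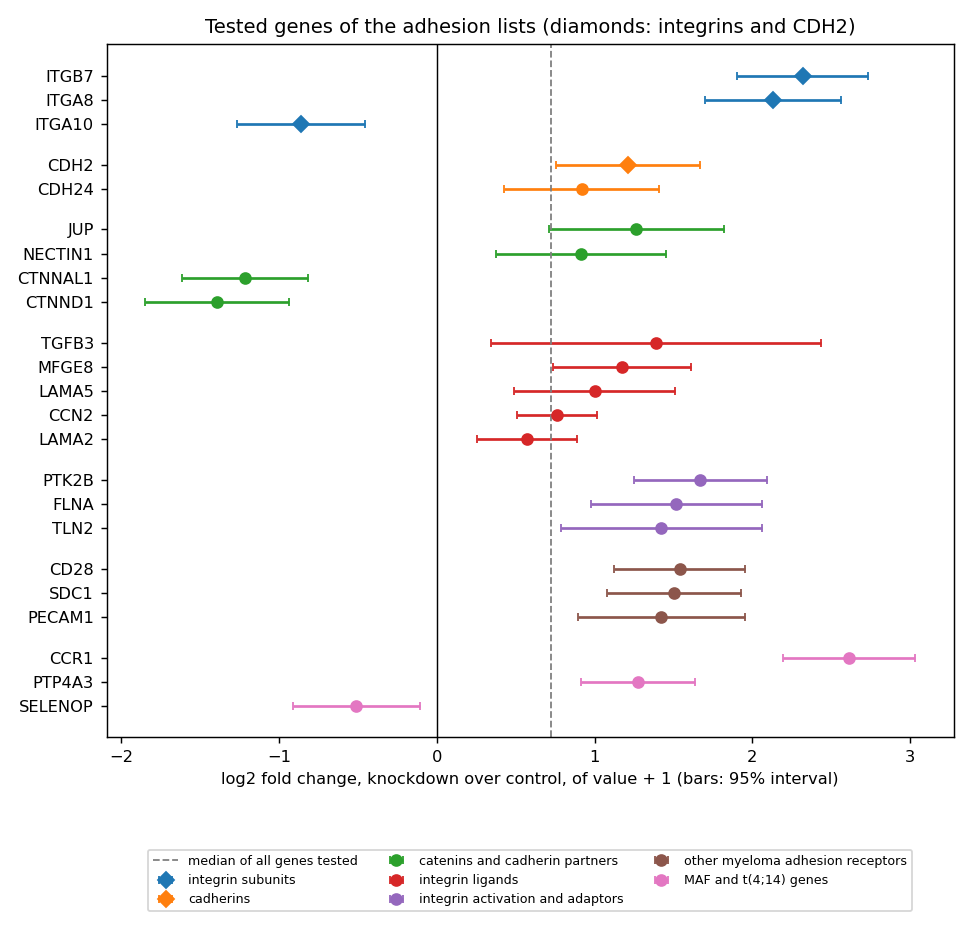
Log2 fold change (knockdown over control, of value + 1, horizontal axis) of the 23 tested genes of the adhesion lists, coloured by list, with 95% limma intervals. Diamonds are ITGB7, ITGA8, ITGA10 and CDH2, and the dashed line is the median of all genes tested (0.73). The 19 genes that rose lie right of 0, with CCR1, ITGB7 and ITGA8 furthest right, and the 4 that fell lie left of it.

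The genes whose pattern over the 6 libraries was nearest to each gene that rose were sought among 1074 other tested genes with a symbol. The measure was the root mean square difference of log2(value + 1), each gene centred on its own mean. For ITGB7 the nearest were BTN2A2, of the butyrophilin family (difference 0.095), the antisense RNA ALDH1A3-AS1 (0.115) and the kinase gene CAMK2A (0.121). ITGA8 was nearest to DENND2C (0.063), the sulfatase gene ARSI (0.091) and MT-CO1, a mitochondrial subunit of cytochrome c oxidase (0.092). CDH2 was nearest to the transcription factor MEF2C (0.034), the fatty acid desaturase SCD (0.062) and OXCT2 (0.065). MEF2C had a signal of 341.21, 420.37 and 370.67 in the knockdown libraries, against 193.46, 176.59 and 125.18 in the control libraries. In CDH2 and MEF2C alike, library 2 was the highest of the knockdown and library 3 the lowest of the control. This order is not particular to them, as ITGA8, SCD and OXCT2 had it too. Control library 3 was the lowest control in 428 of the 598 listed genes with a mean of at least 5. The points share the 6 libraries and the difference between the groups, and no p is given.

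**Figure D4:**
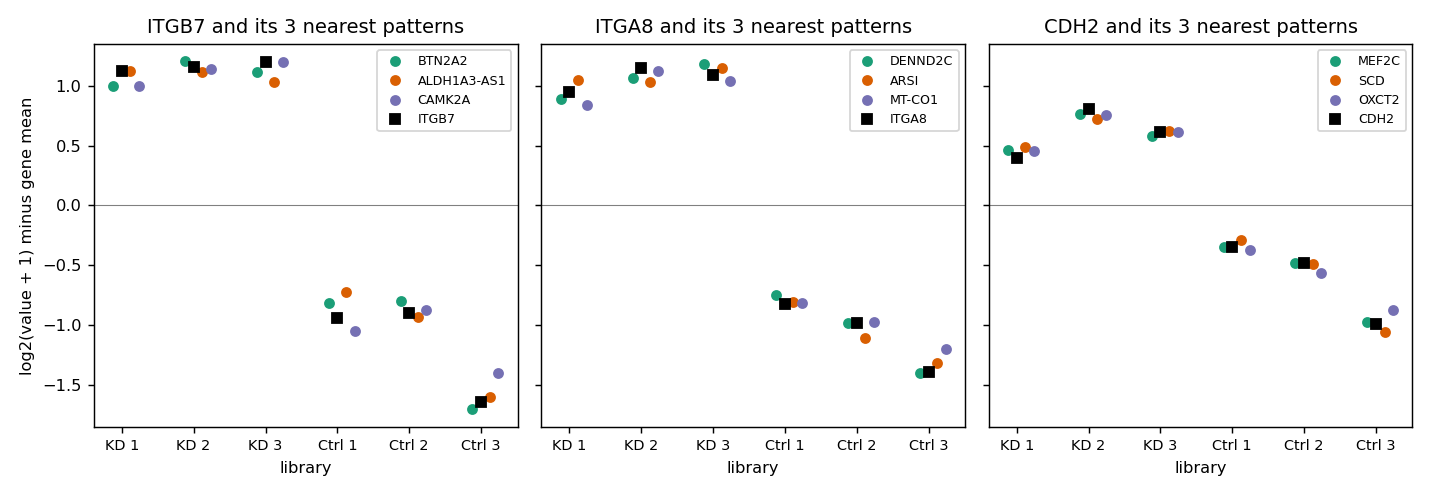
Log2(value + 1) minus the gene's mean over the 6 libraries (vertical axis) in each knockdown (KD) and control (Ctrl) library for ITGB7, ITGA8 and CDH2 (black squares) and the 3 genes with the nearest pattern (coloured points, set side by side). Control library 3 is the lowest point of each of the 3 genes.

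Markers of other cell types were few in the table. None of 12 T and NK cell markers was listed. Of 12 myeloid markers CD33 was listed, at 0.61 to 1.10 in the knockdown and 0.07 to 0.55 in the control. Of 11 fibroblast and stromal markers COL1A1 and SPARC were listed. SPARC had a signal of 0.20, 0.24 and 0 in the knockdown libraries, against 24.29, 23.66 and 7.7 in the control libraries. COL1A1 was near the floor, at 0.07 to 0.44 in the knockdown and 0.47 to 0.72 in the control. Of 10 markers of epithelial or packaging cells, CLDN4 was present, at 1.29 to 1.48 in the knockdown and 1.85 to 3.17 in the control. Of 10 endothelial and platelet markers PECAM1 was listed, with the values given above. Of 12 plasma cell marker symbols SDC1 was listed, at 34.13 to 36.19 in the knockdown and 9.20 to 14.45 in the control. Only genes that differed are listed, so a marker outside the list may still be present. These counts therefore do not show which cells were sampled. The part of these markers in the integrin and cadherin values was not tested.

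The size of each change depended on the setting, and the genes had been selected as changed on these same libraries. Over 15 alternatives the log2 fold change ran from 1.95 to 2.45 for ITGB7, from 1.69 to 2.27 for ITGA8 and from 0.86 to 1.34 for CDH2, and each passed in all 15. Scaling the libraries to the same sum of listed genes gave 1.95 for ITGB7, 1.79 for ITGA8 and 0.86 for CDH2, and moved the median of all genes tested to 0.49. Taking that median gap of 0.173 off the knockdown libraries gave 2.15, 1.96 and 1.04, with a median of 0.62. ITGA10 passed in all 11 alternatives in which it could be tested.

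**Figure D5:**
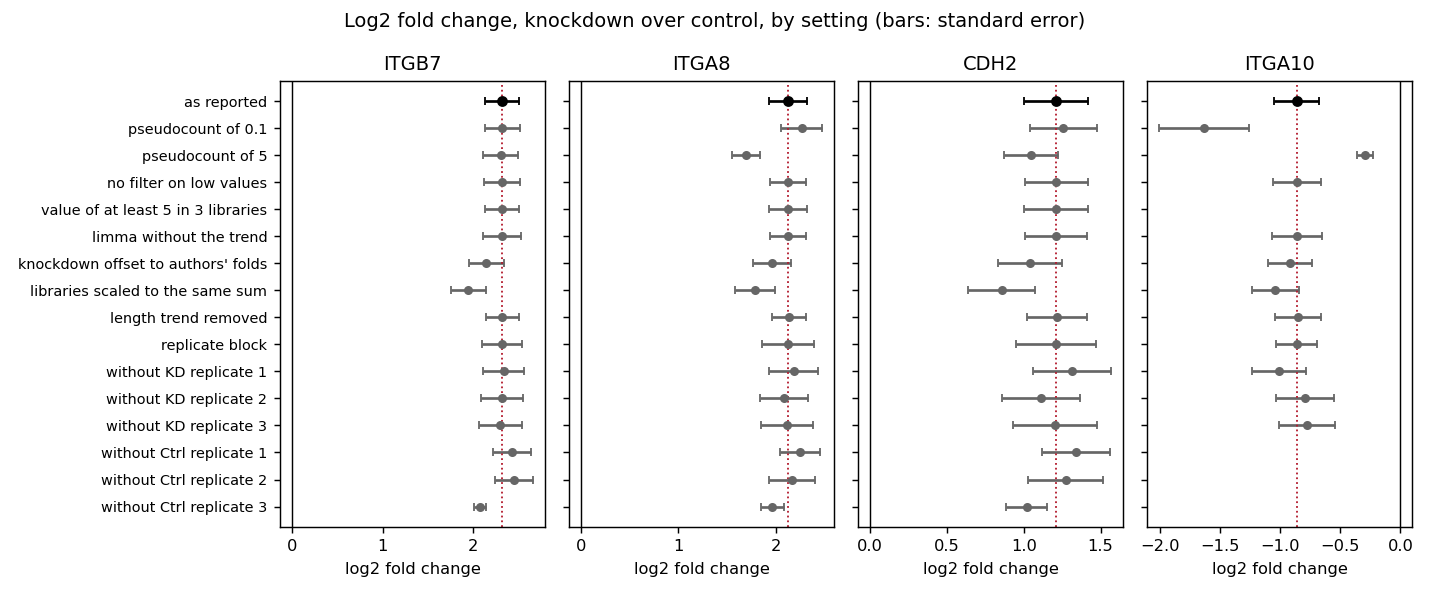
Log2 fold change (knockdown over control, horizontal axis) of ITGB7, ITGA8, CDH2 and ITGA10 as reported (black) and under each of 15 alternatives (grey), with standard errors. No point lies on the other side of 0 from the reported value, and ITGA10 has no point where it could not be tested.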

How the data were processed

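The table deposited by the authors holds normalized signal values of 1877 genes in 3 RNF5 knockdown and 3 control libraries of LP-1, with 2 decimals and no stated scale, and the 2 group means. It also holds the authors' fold ratio (knockdown over control), its log2 value, and the authors' p-value with an adjusted p-value, all per the file headers. The build hg19 and Bowtie 0.12.2 are named, without a step, per the submitters' processing notes. The signal is not whole reads and depth is unknown, so no counting interval is given, and library number limits the precision.

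A gene entered the test if 3 or more libraries reached a value of 1 (1290 genes, with 587 left out). The test was limma 3.58.1 (R 4.3.3) on log2(value + 1), with its trend option and the group as the only term. Adjusted p-values (Benjamini-Hochberg) under 0.05 passed. The fit was also run on simulated data in which most genes were unchanged. That run checked the code and gives no error rate for the selected genes here. Exact permutation tests used SciPy 1.17.1. The members and the 13 gene lists (7 of adhesion, 6 of cell type markers) were chosen with earlier results of these data known, and 1 gene of the lists is not reported here and is left out of their counts. Named were the genes of the rule, RNF5, every listed gene of the adhesion lists, the 3 nearest patterns of each gene that rose, and listed markers. Lengths and overlaps came from GENCODE release 29 by gene identifier (91.7% matched). The promoter table matched 4 of the 5 genes. Alternatives changed the pseudocount, filter, trend, scaling, length correction, replicate block or 1 library at a time.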

Additional observations from a re-analysis of the deposited data

How the results depend on the processing

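Over 15 alternatives no direction of ITGB7, ITGA8, CDH2 or ITGA10 reversed and none of the 4 lost its call where it was tested. The authors selected these genes as changed on the same libraries, so this is not independent support. Because the groups did not overlap, leaving out 1 library could not reverse a direction. A change of filter, trend or replicate block could not move a log2 fold change at all. The count of these genes passing was 4 in the reported fit, 5 with no filter, when ITGA9 also entered, and 3 with a minimum of 5 or without any 1 control library, when ITGA10 was not tested. The count of changed genes moved with the filter: 1260 as reported and 654 with a minimum of 5, of which 363 were higher (718 as reported) and 291 lower (542 as reported), because fewer genes were tested. With no filter, 882 were lower. In the adhesion lists, 23 genes passed as reported and 15 with a minimum of 5. The 4 that were lower became 10 with no filter, 1 with a minimum of 5 and 2 without control library 1. Leaving out 1 library at a time gave 1076 to 1161 changed genes, 555 to 716 higher and 415 to 527 lower, and 2 to 4 lower in the adhesion lists. The log2 fold change then ran from 2.08 to 2.45 for ITGB7, 1.97 to 2.25 for ITGA8, 1.02 to 1.34 for CDH2 and -1.01 to -0.78 for ITGA10.

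Same-numbered libraries did not deviate together (correlations of -0.165, -0.071 and -0.082 for numbers 1, 2 and 3). The deviations were taken within groups of 3 libraries, so these values cannot show whether the libraries were paired by design. A replicate block gave 1272 changed genes. With groups of equal size it cannot alter the log2 fold changes, which stayed at 2.32, 2.13, 1.21 and -0.86. Low signal kept ITGA9 out of the limma test and ITGA10 out of 4 alternatives.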

Other observations

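Protocadherins, relatives of the cadherins that were noticed in the table and are in none of the lists, held 7 listed genes, 6 listed by the authors as higher and 1 as lower, against 924 higher and 953 lower in the whole table. Of these, 5 were members of the gamma cluster (PCDHGA1, PCDHGA2, PCDHGA5, PCDHGA6 and PCDHGB4), all listed as higher. PCDHGA6 had a signal of 1.29, 1.57 and 1.57 in the knockdown libraries, against 0.50, 0.42 and 0.42 in the control libraries, and PCDHGA1 of 1.43, 1.98 and 1.75, against 0.88, 0.68 and 0.50. No value of the 7 exceeded 1.98, and the gamma genes share their last exons, so reads cannot be assigned to a member with certainty. PCDH17 was listed at 0 in all 3 knockdown libraries and at 0.10, 0.04 and 0.07 in the control libraries.

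Transcripts antisense to integrin genes were listed as well. PDK1-AS1, annotated as antisense to PDK1 and ITGA6, had a signal of 4.18, 2.89 and 1.87 in the knockdown libraries, against 0.99, 1.11 and 0.89 in the control libraries. ENSG00000289009, a transcript with no symbol that is antisense to ITGB2, had 1.32, 0.92 and 1.35 in the knockdown libraries, against 0.55, 0.48 and 0.33 in the control libraries, and was too low to test. ITGA6 and ITGB2 themselves were not among the listed genes. These protocadherins and antisense transcripts were chosen after their values were seen.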
